A study of Mus musculus with 2 samples.

Results

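Loops inside gene deserts were taken from the Hi-C loop lists of mouse uterus as the autosomal loops with no RefSeq protein-coding gene body within 100 kb of either anchor, on assembly GRCm38. They numbered 2355 of the 50371 loops in both lists. The diestrus list held 1408 of them among 25411 autosomal loops, and the estrus list held 947 among 23385. Both groups were uteri of intact, untreated CD-1 mice aged 2 months, an outbred stock, and they differed in the stage of the estrous cycle, diestrus or estrus. Each stage had 1 library (n = 1) made with the Arima HiC kit. The number of animals behind each library was not given in the sources used here. Whole uterus mixes epithelium, stroma, muscle and vessels, and Hi-C holds no expression values with which the labelled tissue could be checked against marker genes. With 1 library per stage, differences between stages have no replicate check and were not tested. The intervals given are at 95% and cover chance over the listed loops, or counting error for contacts, and not the spread between animals.

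A chromatin loop is a point where the Hi-C map holds more contacts between a pair of places on a chromosome than its surroundings do. Loops commonly form where cohesin, which extrudes DNA, is held at CTCF sites, and others bring enhancers to promoters. Gene deserts are long stretches without protein-coding genes. They often lie beside genes for developmental transcription factors and signals, and can hold enhancers, long non-coding RNA genes and microRNA genes, so a loop within one joins sites that are not themselves promoters of coding genes. In the uterus estrogen acts on the tissue around estrus and progesterone during diestrus.

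The RefSeq annotation placed 7 microRNA genes in anchors of desert loops, and mature sequences of 6 of them were used here. Mir466f-4 is named only. The sequences are shown as examples of annotated products at the ends of desert loops. Non-coding genes of any kind overlapped 26.5% of the anchors in diestrus and 29.8% in estrus, against 18.4% of all desert bins. The share of desert bins with a microRNA gene is not given here, so the 7 are not read as an excess. The sequences are written 5′ to 3′ from RefSeq on GRCm38.p6, with the seed, bases 2 to 8, which pairs with target transcripts, in capitals. The 10 distinct mature forms had 10 distinct seeds.
miR-99a-5p: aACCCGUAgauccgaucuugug
let-7c-5p: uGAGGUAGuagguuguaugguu
miR-125b-5p: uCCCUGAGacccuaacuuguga
miR-125b-1-3p: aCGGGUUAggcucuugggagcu
miR-125b-2-3p: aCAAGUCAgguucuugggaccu
miR-205-5p: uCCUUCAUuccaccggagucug
miR-6372: aGAACUGGggaaacuuccagccu

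miR-99a and let-7c came from neighbouring hairpins in the anchor chr16:77590001-77600000, in the desert between Usp25 and Cxadr, which held 7 desert loops in diestrus and 5 in estrus. The hairpin Mir125b-2 lay in another anchor of the same desert, chr16:77640001-77650000, with 2 loops in diestrus and 0 in estrus. Its 5p form, which many developing tissues express, has the same sequence as that of Mir125b-1. The latter lay in the anchor chr9:41580001-41590000, between Ubash3b and Gm40514, with 4 loops in diestrus and 2 in estrus. miR-205, a microRNA of epithelia, lay in the anchor chr1:193500001-193510000 between Camk1g and Plxna2, with 2 loops in each library. miR-6372 lay in the anchor chr11:26200001-26210000 between Bcl11a and Fancl, also with 2 and 2.

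Promoters of non-coding genes in the anchors were searched for the core of the CTCF motif, written as CCA, 2 free bases, AG, 2 free bases and GGC, on both strands in the 300 bases from 250 before to 50 after each gene's start. It occurred in 4 of 179 promoters in anchors of desert loops, 2.23% (0.612 to 5.62), against 2.47% of 31396 autosomal promoters, those of coding genes included. In the other promoters within desert bins it was 1.24% (0.776 to 1.86) of 1781, with an interval that overlaps that of the anchors. The windows cover a small part of each 10 kb anchor, and other sequence of the anchors was not used here. Of the matching promoters, those of Gm38512, in the desert beside Sox2, and Gm33861, in the desert between Dyrk2 and Cand1, are shown with the match in capitals. The promoter of Gm13470 is shown because its anchor, in the desert beside Zeb2, was among the 5 with most desert loops. It has no match. All 3 genes are long non-coding RNA genes on the minus strand, at chr3:35343117-35343416, chr10:119076174-119076473 and chr2:46442856-46443155, and the sequences run 5′ to 3′ on that strand.
Gm38512: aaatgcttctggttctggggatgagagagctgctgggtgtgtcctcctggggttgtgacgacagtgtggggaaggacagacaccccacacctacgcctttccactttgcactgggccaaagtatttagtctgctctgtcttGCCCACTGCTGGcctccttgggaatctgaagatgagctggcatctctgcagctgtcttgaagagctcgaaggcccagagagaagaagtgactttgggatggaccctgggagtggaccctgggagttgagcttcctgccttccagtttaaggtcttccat
Gm33861: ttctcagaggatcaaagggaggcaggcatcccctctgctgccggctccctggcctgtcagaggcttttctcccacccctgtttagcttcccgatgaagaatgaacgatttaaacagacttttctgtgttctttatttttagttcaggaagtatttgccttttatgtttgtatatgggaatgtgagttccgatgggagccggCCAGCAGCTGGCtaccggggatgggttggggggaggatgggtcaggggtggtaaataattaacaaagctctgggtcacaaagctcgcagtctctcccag
Gm13470: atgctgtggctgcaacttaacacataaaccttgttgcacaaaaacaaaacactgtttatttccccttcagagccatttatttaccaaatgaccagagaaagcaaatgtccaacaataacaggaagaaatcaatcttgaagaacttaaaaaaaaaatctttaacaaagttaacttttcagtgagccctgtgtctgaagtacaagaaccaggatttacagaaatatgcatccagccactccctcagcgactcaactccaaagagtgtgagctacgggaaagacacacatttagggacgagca

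The anchor with the Gm38512 promoter held 1 loop in each library, to an anchor 60 kb away. That loop had 190 contacts in diestrus, 2.63 times the expected number, and 143 in estrus, 2.13 times. The anchor with the Gm33861 promoter held 2 loops in each library. Its longer loop, of 480 kb, was found in both, with 300 contacts at 7.28 times the expected number in diestrus and 224 at 6.02 times in estrus. Long non-coding RNA genes overlapped 22.2% of the anchors of desert loops in diestrus and 24.0% in estrus, against 13.4% of all desert bins. When genes of every kind were kept at least 100 kb away, 75 loops remained in diestrus and 47 in estrus.

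Desert loops were scarcer in estrus than in diestrus by more than other loops were. There were 0.673 desert loops in estrus for each in diestrus, against 0.935 for the other autosomal loops. Loops with 1 anchor in a desert lay between, with 4273 in diestrus and 3647 in estrus, a ratio of 0.853, and loops with no anchor in a desert numbered 19730 and 18791, a ratio of 0.952. Desert loops made up 5.54% (5.26 to 5.83) of autosomal loops in diestrus and 4.05% (3.80 to 4.31) in estrus. The desert ratio was below 1, and below that of the other loops, on all 19 autosomes. It ran from 0.452 on chromosome 17 to 0.869 on chromosome 14, while the other loops ran from 0.821 to 0.994. The libraries also differed as a whole, with 4533525 contacts at the listed loops in diestrus and 4153485 in estrus. The part of this difference in the number of desert loops was not tested. When the diestrus list was cut to its strongest loops so that both lists had the same length, the desert ratio was 0.810 and that of the other loops 1.01.

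A loop was counted as found in the other library when that list had a loop with both anchors within 10 kb of its own. Of the diestrus desert loops 651 were found in estrus, 46.2% (43.6 to 48.9), where 74.5% of all autosomal diestrus loops were. Of the estrus desert loops 650 were found in diestrus, 68.6% (65.6 to 71.6), where 80.9% of all autosomal estrus loops were. The desert loops were therefore less often shared in both directions, and 757 were listed in diestrus alone against 297 in estrus alone. A loop that is not listed may still have contacts, since the lists hold called loops only.

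The ratio of estrus to diestrus loops and the sharing of diestrus loops were lower far from genes than near them. Where the nearer anchor touched a gene the ratio was 0.938, and under 50 kb from one it was 0.924. It was 0.896 at 50 to 100 kb, 0.728 at 100 to 200 kb, 0.692 at 200 to 300 kb, 0.543 at 300 to 500 kb and 0.550 at 500 kb or more. The share of diestrus loops found in estrus was 76.7% in genes and 65.4% at 50 to 100 kb. Inside deserts it was 50.9% (47.2 to 54.6) at 100 to 200 kb, 47.8% (42.2 to 53.4) at 200 to 300 kb, 38.2% (32.2 to 44.5) at 300 to 500 kb and 29.7% (21.4 to 39.1) beyond. The share of estrus loops found in diestrus stayed between 69.1% and 69.9% from 100 to 500 kb and was 54.1% (40.8 to 66.9) beyond, where 61 loops were listed. Just outside the 100 kb limit, at 90 to 100 kb, 106 diestrus and 97 estrus loops were found in the other list in 58.5% and 67.0% of cases. Just inside it, at 100 to 110 kb, 81 and 74 loops were found in 60.5% and 66.2%, so the values did not jump at the limit.

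**Figure D1:**
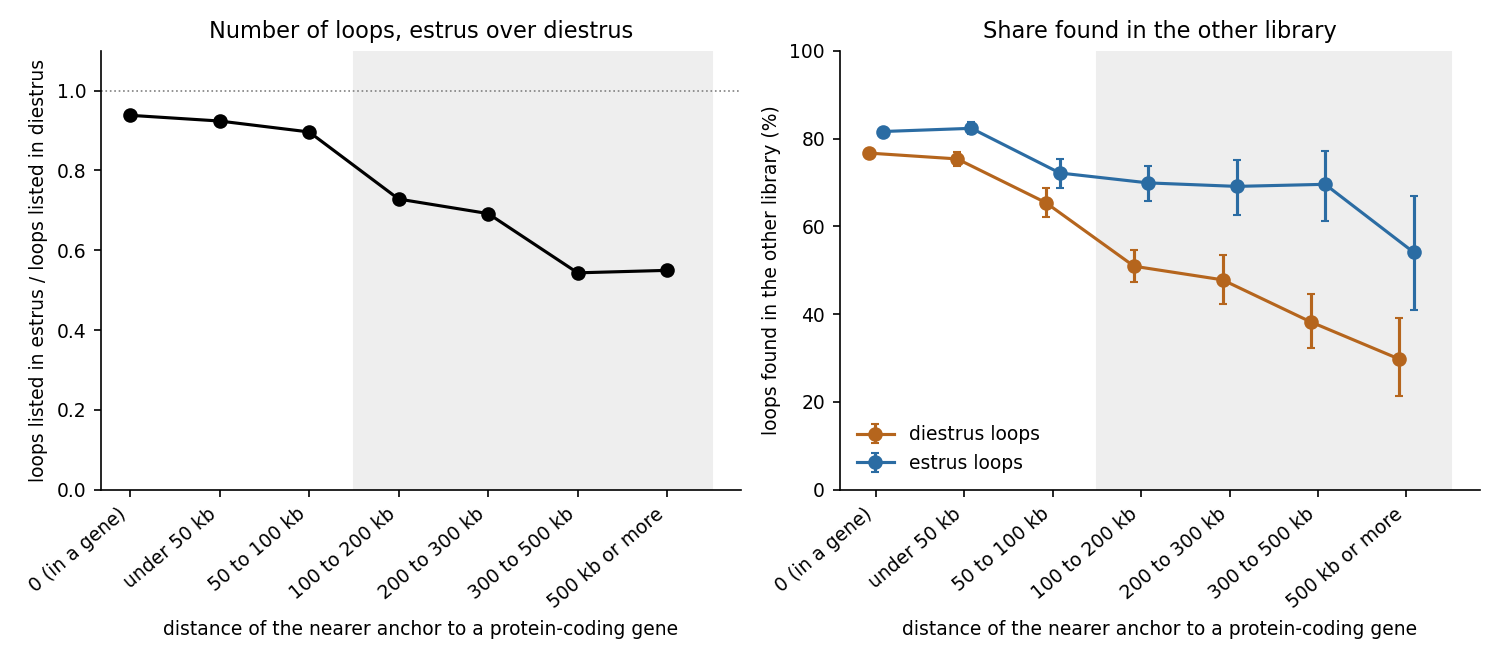
Left, estrus loops divided by diestrus loops, and right, the share of loops found in the other library (%, with 95% Clopper-Pearson intervals), by the distance of the nearer anchor to a protein-coding gene. The grey area marks the desert loops, where the ratio runs from 0.728 down to 0.543 and the share of diestrus loops found in estrus from 50.9% to 29.7%.

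Desert loops were longer and weaker than autosomal loops in general. In diestrus their median length, from anchor to anchor, was 290 kb (270 to 310), and in estrus it was 310 kb (290 to 340), against 240 kb and 230 kb for all autosomal loops. The greater length was not particular to them. Loops with 1 anchor in a desert had a median of 450 kb in both stages, and loops at 50 to 100 kb from a gene one of 340 kb. Strength was the number of contacts over the number expected from the donut-shaped area around the loop. For desert loops the diestrus median was 2.63 (2.59 to 2.69) and the estrus median 2.82 (2.73 to 2.91), against 3.27 and 3.42 for all autosomal loops. The median desert loop held 91 contacts in diestrus and 83 in estrus, against 127 in either library for all autosomal loops. Those listed in 1 library alone were weaker still, with a median strength of 2.39 against 3.19 for the shared ones in diestrus, and of 2.35 against 3.03 in estrus.

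By length, the shortfall in estrus was greatest at middle distances. Up to 100 kb there were 128 desert loops in diestrus and 102 in estrus, a ratio of 0.797. The ratio was 0.640 at 110 to 200 kb, 0.587 at 210 to 400 kb, where 383 and 225 loops were listed, and 0.615 at 410 to 800 kb. It was 0.811 at 810 to 2000 kb, and above 2000 kb the order turned, with 50 loops in diestrus and 54 in estrus, a ratio of 1.08. Among the other autosomal loops the ratio was at least 0.892 in all 6 classes of length.

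**Figure D2:**
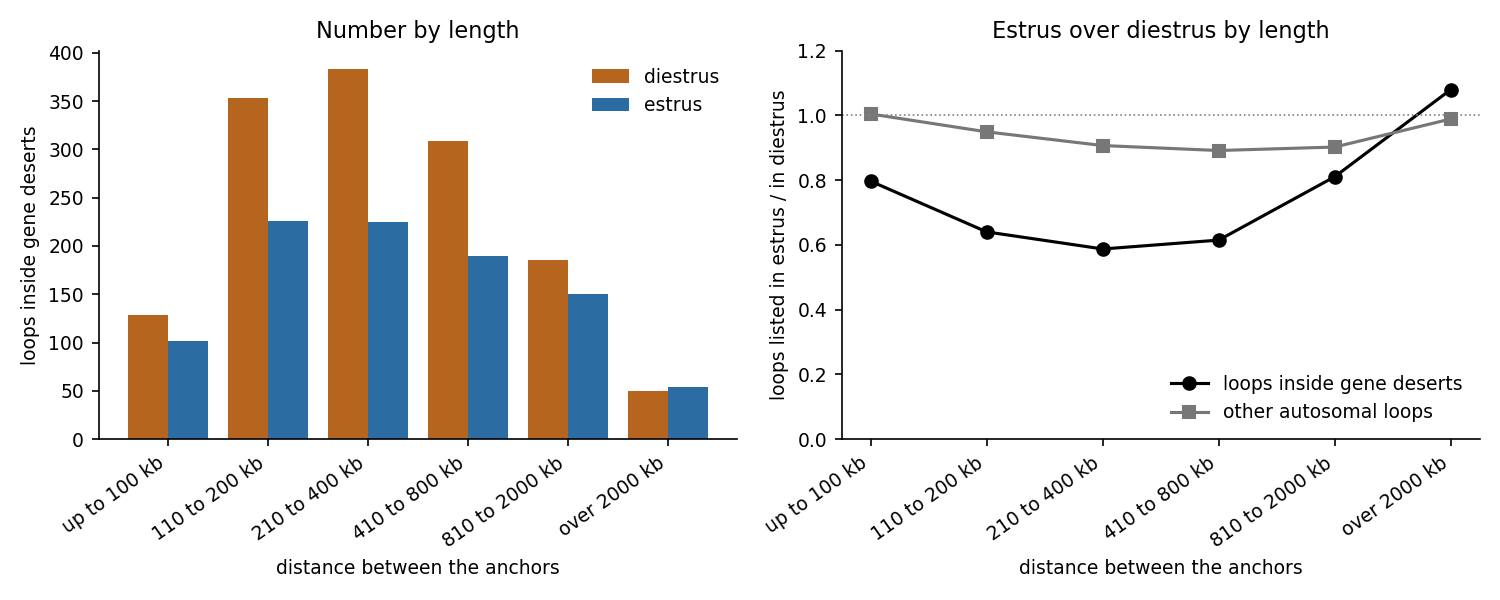
Left, the number of desert loops by the distance between their anchors in diestrus and estrus, and right, the number in estrus divided by that in diestrus for desert loops and the other autosomal loops. The desert ratio falls from 0.797 up to 100 kb to 0.587 at 210 to 400 kb and is 1.08 above 2000 kb, where 50 and 54 loops were listed.

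Weaker loops were less often found again, in deserts and elsewhere. Among diestrus desert loops of strength up to 2, 14.6% (8.01 to 23.7) were found in estrus, against 36.6% of other loops of that strength. At strength 2 to 2.5 the shares were 26.2% and 53.4%, at 2.5 to 3 they were 43.9% and 67.8%, and at 3 to 4 they were 63.8% and 79.9%. They were 81.2% and 91.9% at 4 to 6, and above 6 they came to 94.1% (85.6 to 98.4) and 95.5%. So the diestrus desert loops were found less often than others in each class, with overlapping intervals above 6. Among estrus loops the desert share was 55.4% where that of others was 60.1% at strength 2 to 2.5, and 77.2% where it was 84.5% at 3 to 4. Above 6 the gap was wider in estrus, at 82.9% (73.0 to 90.3) against 97.0% (96.4 to 97.5), with separate intervals. That class takes in the 13 estrus desert loops with expected contacts under 1, whose strengths divide by a number near 0. Of these 6 were found and 7 were not, among the 14 desert loops of the class that were not found. So the width of this gap rests in part on them. Set against other loops of the same length class and strength class, 46.2% of diestrus desert loops were found where 61.8% of the others were, a difference of -15.5 percentage points. For estrus the same values were 68.6% and 71.6%, a difference of -2.98 points.

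**Figure D3:**
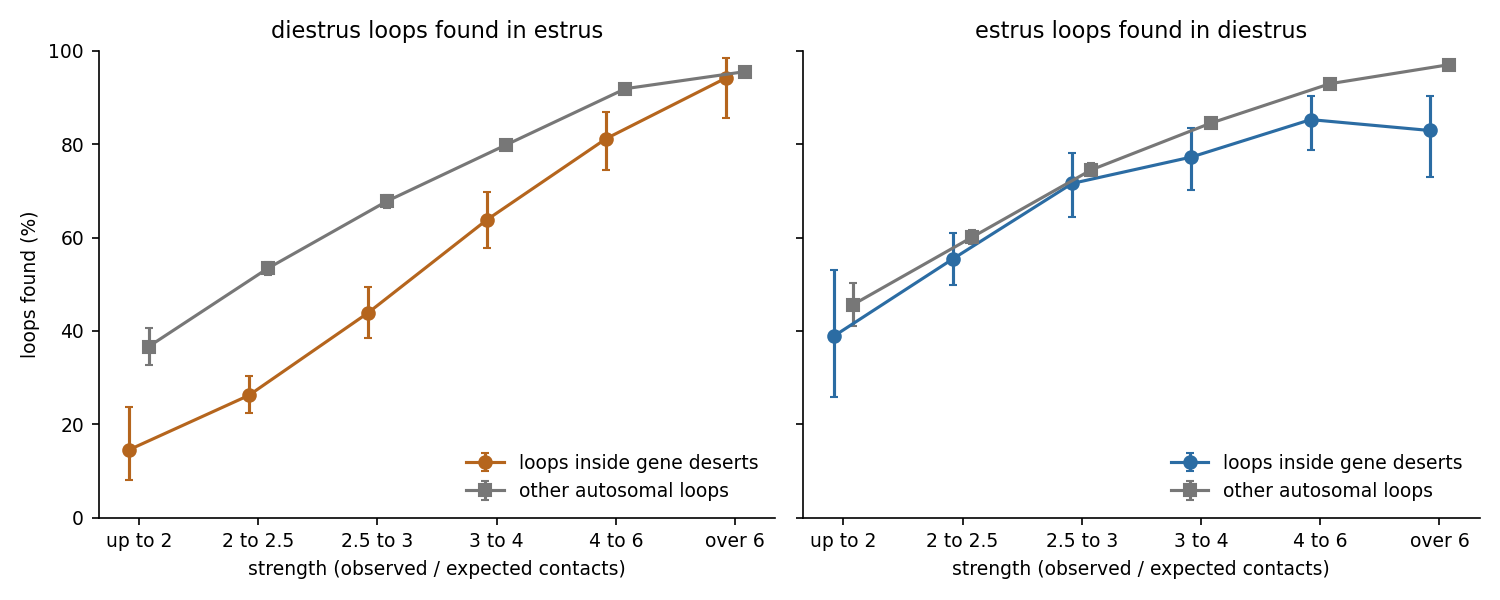
Share of loops found in the other library (%) by strength (observed over expected contacts), for diestrus loops on the left and estrus loops on the right, with 95% Clopper-Pearson intervals. Diestrus desert loops lie below the other loops, from 14.6% against 36.6% up to strength 2 to 94.1% against 95.5% above 6, while in estrus the gap is widest above 6, at 82.9% against 97.0%. That estrus class includes the 13 desert loops with expected contacts under 1, of which 7 were not found.

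At loops listed in both libraries, strength moved little. There were 647 pairs of mutually nearest desert loops, of 18808 autosomal pairs, and 544 of them lay at identical bins. The log2 ratio of estrus to diestrus strength was centred on the median of all autosomal pairs. Its median was -0.04 (-0.07 to -0.03) for desert pairs and 0.00 for the others. The contacts themselves had a median log2 ratio of -0.14 at desert pairs and -0.06 at the others, and the expected contacts one of -0.14 and -0.08. More than 1.5-fold differences were rare. In diestrus 24 desert pairs (3.71%) were stronger by that much, against 1.55% of all pairs, and in estrus 8 (1.24%) were, against 1.64% of all pairs. The count for estrus depended on the background chosen, and was 18 with the bottom-left expectation and 14 with the largest of the 4 expectations, with 24 and 22 for diestrus. At identical bins 13 and 4 of the 544 pairs passed, where 0.73% and 0.654% of all such pairs did.

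The largest shift towards diestrus at identical bins, among pairs with at least 20 contacts in both libraries, was in the desert between Usp25 and Cxadr. The loop from chr16:78050001-78060000 to chr16:78150001-78160000 had 309 contacts (276 to 345) in diestrus and 116 in estrus, at strengths of 4.41 and 2.10, a centred log2 ratio of -1.09. Next was a loop of 630 kb beside Zfp608, with 236 and 100 contacts and a log2 ratio of -0.86. A loop of 290 kb beside Hs3st4, a heparan sulfate sulfotransferase gene, had 176 and 70 contacts and a log2 ratio of -0.82. A loop of 1020 kb between Gm597 and Phf3 had 62 and 34 contacts. In each of these 4 both the contacts and the strength were lower in estrus.

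The largest shift towards estrus was beside Unc5d, a netrin receptor gene, where a loop of 50 kb had 194 contacts in diestrus and 205 in estrus. Its strength was 3.92 and 8.92, a log2 ratio of 1.17, so the expected contacts and not the observed ones differed. The 4 that followed had more contacts in estrus, with counting intervals that overlap between the libraries in each. A loop of 1720 kb with its left anchor beside Dgkb and its right one between Etv1 and Arl4a had 27 and 41 contacts, and one of 240 kb between Sucla2 and Htr2a had 80 and 110. A loop of 4130 kb around Epha7, an ephrin receptor gene, had 27 and 45. A loop of 750 kb around Fign had 95 and 124.

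Most desert loops stayed within 1 gap between neighbouring coding genes. These were 1158 loops in diestrus, 82.2% (80.1 to 84.2), and 720 in estrus, 76.0% (73.2 to 78.7). The other 250 and 227 loops spanned at least 1 coding gene with both anchors in deserts, and 170 and 146 of them spanned exactly 1. Crossing loops were longer, with medians of 1040 kb and 1210 kb. They were stronger too, with median strengths of 3.84 and 4.21, against 2.52 in either library for loops in 1 gap. Crossing loops were also more often shared, at 68.8% (62.7 to 74.5) and 76.2% (70.1 to 81.6), against 41.4% (38.5 to 44.3) and 66.2% (62.7 to 69.7) for those in 1 gap. The fall in number in estrus lay mainly in loops confined to 1 gap, from 1158 to 720, and less in crossing loops, from 250 to 227. The part of strength and length in these differences was not tested. Among the strongest crossing loops up to 2000 kb, 1 spanned Isl1, a LIM homeobox gene, over 1480 kb with 206 contacts in diestrus and 209 in estrus, at strengths of 11.5 and 11.3. Another, from between Ednrb and Pou4f1 to between Obi1 and Rbm26, had 267 and 268 contacts at 11.4 and 9.99.

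There were 1314 gaps wide enough to hold a 10 kb bin at least 100 kb from coding genes, 643.64 Mb of such bins in all, and 377 held desert loops. Of these 339 held loops in diestrus and 283 in estrus, 245 in both, 94 in diestrus alone and 38 in estrus alone. More loops were listed in diestrus in 220 gaps, more in estrus in 79, and equal numbers in 78. Density was low, at 2.19 desert loops per Mb of desert in diestrus and 1.47 in estrus. Loops with no anchor in a desert came to 11.2 and 10.7 per Mb of the other bins. Loops with 1 anchor in a desert, 4273 in diestrus and 3647 in estrus, enter neither density. The contrast is therefore not one of how often bins of each kind serve as anchors. Counting only desert loops within 1 gap, there were 1.80 and 1.12 per Mb of desert. That density was lower in small and in very large gaps than in those of 1 to 2 Mb. For small gaps this is largely set by the rule, which leaves out 100 kb beside each flanking gene. The 726 gaps up to 0.5 Mb kept 80.41 Mb of bins in all. Loops within 1 gap had median lengths of 240 kb in diestrus and 220 kb in estrus, so many could not fit there. Gaps of 1 to 2 Mb held 2.83 and 1.67 loops per Mb, with 569 and 336 loops, while those over 2 Mb held 0.925 and 0.627, with 180 and 122. Gaps up to 0.5 Mb held 38 and 43 loops, the class in which estrus had more. Of 72 gaps over 2 Mb, 14 held no desert loop, and the widest of them was the 4.54 Mb between the protocadherin genes Pcdh20 and Pcdh9.

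The loops were concentrated. Counting a loop of both lists once, the gaps held 1403 distinct loops, 276 (19.7%) of them in the 12 richest gaps, while 134 gaps held 1. All 12 held fewer loops in estrus, 127 against 245 in diestrus. The ranking counts loops of both lists, so it favours gaps with many loops in the longer diestrus list. The low numbers in estrus are thus partly set by the ranking. Over all gaps there were 720 loops in estrus against 1158 in diestrus, a ratio of 0.622. Of the 24 gaps with at least 10 distinct loops, 21 held fewer in estrus and 3 held more.

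**Figure D4:**
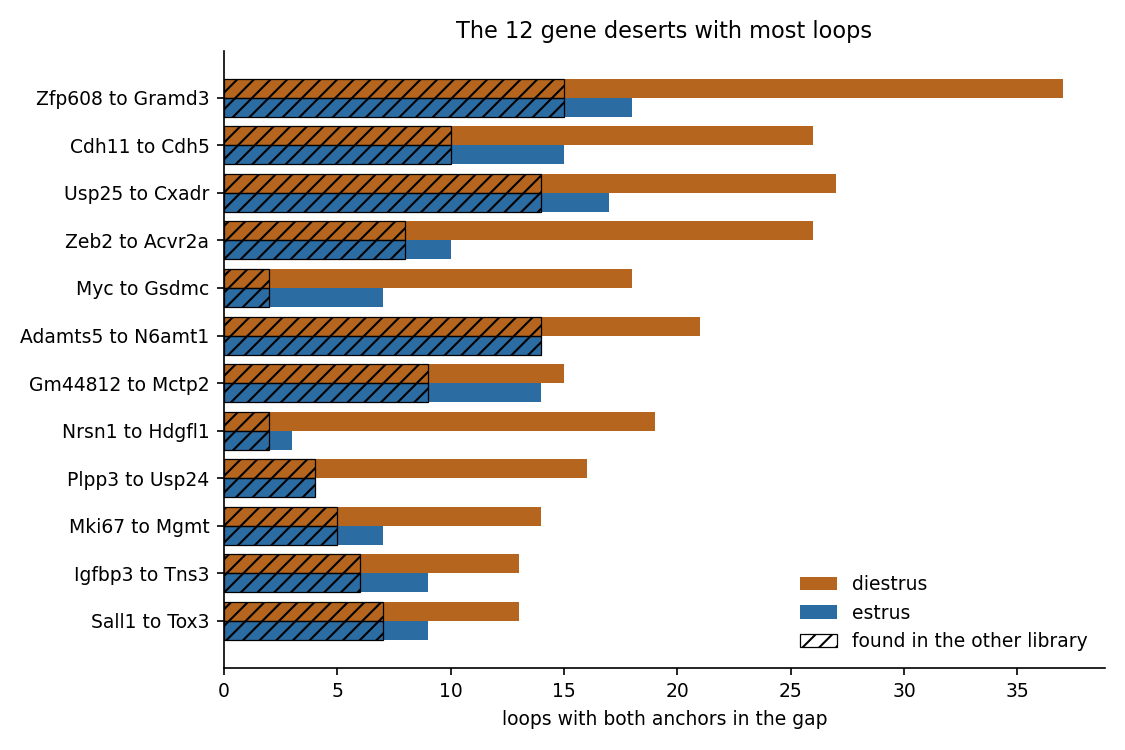
Number of desert loops with both anchors in the gap, in diestrus and estrus, for the 12 gaps with most distinct loops. The hatched part was found in the other library. Each gap has fewer loops in estrus, from 18 against 37 between Zfp608 and Gramd3 to 14 against 15 between Gm44812 and Mctp2. The ranking itself favours gaps with many loops in the longer diestrus list.

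The richest desert lay between Zfp608, a zinc finger gene, and Gramd3 (chr18:54992592-56387484), with 37 loops in diestrus and 18 in estrus. The anchor chr18:55130001-55140000, beside Zfp608, held 15 and 8 loops of which 21 ran away from Zfp608 and 2 towards it, counted over both lists. This anchor lies 137 kb from Zfp608. Within the gap the 100 kb rule therefore leaves no room towards Zfp608 for the shortest desert loops, of 50 kb, so the direction is largely set by the rule. The anchor's loop of 490 kb had 277 contacts in diestrus and 153 in estrus. The desert between Cdh11, a cadherin gene of mesenchymal cells, and Cdh5, the cadherin gene of endothelium (chr8:102785494-104101612), held 26 and 15 loops. There 10 loops were shared, and the loop with most contacts, of 170 kb, had 285 in diestrus and 185 in estrus. All 15 shared loops of the first desert and all 10 of the second had fewer contacts in estrus. These are raw counts, not scaled between the libraries. Contacts were lower in estrus at the median pair elsewhere too, with a log2 ratio of -0.14 for all desert pairs and -0.06 for other pairs. The share of all pairs with fewer contacts in estrus is not given here.

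The desert between Zeb2, which encodes a zinc finger repressor of epithelial genes, and Acvr2a, an activin receptor gene (chr2:45117443-48814108), held 26 loops in diestrus and 10 in estrus. The anchor chr2:46440001-46450000, with the Gm13470 promoter, held 13 and 6 of them, and 18 of these 19 calls ran towards Zeb2. Its loop of 930 kb had 133 contacts in diestrus, 4.38 times the expected number, and 80 in estrus, 2.95 times. The desert between Myc, a transcription factor gene of growth, and Gsdmc (chr15:61990362-63775970) also holds the long non-coding gene Pvt1. It held 18 and 7 loops, of which 2 were shared. Of the 12 richest gaps, the one with the lowest ratio lay between Nrsn1 and Hdgfl1 (chr13:25269997-26768171), where 19 loops in diestrus stood against 3 in estrus. Among them a loop of 690 kb with 133 contacts at 4.44 times the expected number was listed in diestrus alone. Between Plpp3, a lipid phosphatase gene, and Usp24 (chr4:105232768-106315979) there were 16 and 4, all 4 of them shared.

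The other rich deserts also held fewer loops in estrus. Between Gm44812 and Mctp2 (chr7:70584962-72077826) 15 loops were listed in diestrus and 14 in estrus, with 9 shared. Between Adamts5, which encodes an aggrecan-cleaving protease, and N6amt1 (chr16:85901126-87354184) there were 21 and 14, and all 14 estrus loops were shared. This desert held the loop of 360 kb that was second in contacts among the diestrus desert loops, with 502 in diestrus and 458 in estrus at strengths of 7.34 and 7.52. The desert between Mki67, the proliferation marker gene, and Mgmt, a DNA repair gene, held 14 and 7. The desert between Igfbp3, an insulin-like growth factor binding protein gene, and Tns3 held 13 and 9. The same 13 and 9 were listed between Sall1, a zinc finger developmental regulator, and Tox3.

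The desert between Usp25, a deubiquitinase gene, and Cxadr, which encodes a junction protein (chr16:77116784-78301225), held 27 loops in diestrus and 17 in estrus, 14 of each shared. Besides the microRNA genes it holds the long non-coding gene Mir99ahg. The anchor chr16:78150001-78160000, nearest to Cxadr, held 13 and 8 loops, and all 21 calls ran away from Cxadr. Within the gap the selection rule fixes this direction. The anchor ends 141 kb from Cxadr, and bins within 100 kb of the gene were left out. The room left on that side is too short for a desert loop, of which the shortest spanned 50 kb. The longest loop of this anchor, of 900 kb, had 209 contacts in diestrus against 195 in estrus. The loop from the anchor of miR-99a and let-7c to it, of 560 kb, had 378 contacts (341 to 418) in diestrus, 6.22 times the expected number. In estrus it had 218 (190 to 249), 5.09 times that number. The neighbouring loop of 620 kb, from chr16:77530001-77540000, kept 249 and 226 contacts, at 5.30 and 5.84. A loop of 190 kb in the left part of the desert had 296 contacts in diestrus and 299 in estrus. So loops of 1 desert differed in how far their contacts moved between the libraries.

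**Figure D5:**
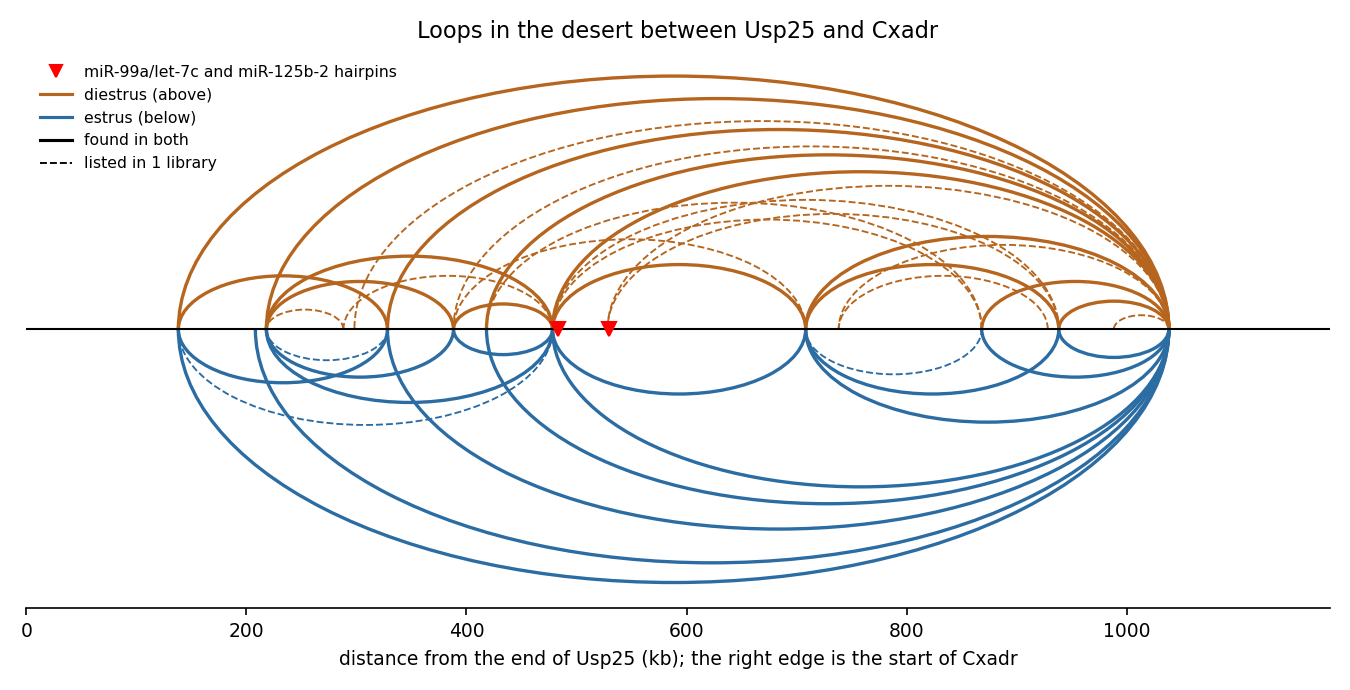
Loops in the desert between Usp25 and Cxadr by the distance of their anchors from the end of Usp25 (kb), diestrus above the line and estrus below. Solid arcs were found in both libraries and dashed ones in 1, and triangles mark the microRNA hairpins; of 27 arcs in diestrus and 17 in estrus 14 each are solid, and 13 and 8 end at the anchor nearest to Cxadr.

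At the anchor of miR-99a and let-7c, 4 of the 7 diestrus loops were among those found in estrus. Their contacts were 378 and 218, 345 and 248, 149 and 101, and 135 and 90, in diestrus and estrus, lower in estrus in each. The centred log2 ratios of strength of these pairs lay between -0.33 and -0.31. At the anchor of Mir125b-1 on chromosome 9, the loop of 110 kb had 370 and 325 contacts and that of 260 kb had 131 and 78. At that of miR-205 the loop of 80 kb had 376 and 369 and that of 200 kb had 106 and 83. At that of miR-6372 the loops of 580 kb and 760 kb had 127 and 117, and 95 and 89. The largest shift in strength among the miR-205 and miR-6372 loops was a centred log2 ratio of -0.13.

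Among the 79 gaps with more loops in estrus, those with the largest excess included gaps beside Efnb2 and Pcdh17. Gaps beside adhesion and guidance genes as a whole went the other way, with 145 loops in diestrus and 100 in estrus. The gap between Slc10a2 and Efnb2, an ephrin ligand gene, held 2 and 6. Between Pcdh17, a protocadherin gene, and Diaph3 there were 0 and 5, of which the one with most contacts had 190 at 2.12 times the expected number.

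Gaps beside genes of 5 lists were then counted, as a description. Genes for developmental transcription factors flanked 133 of the gaps, and 57 of these, 42.9%, held desert loops, against 28.7% of all 1314. They held 222 loops in diestrus and 128 in estrus, and 267 of the 1403 distinct loops lay on 10.8% of the desert bins. Besides Zeb2, Myc and Sall1, the gap between Klf4, a Krüppel-like factor gene, and Actl7b held 9 loops in diestrus and 10 in estrus. That between Meis1, a homeobox cofactor gene, and Spred2 held 11 and 8, with all 8 shared. Genes for adhesion and guidance flanked 117 gaps, 50 of them (42.7%) with loops, 145 in diestrus and 100 in estrus. These made 13.3% of the distinct loops on 23.8% of the desert bins, so they were sparser per Mb than beside transcription factors. Examples were 11 and 7 loops between Fat4, a giant cadherin gene, and Intu, and 8 and 5 between Camk1g and Plxna2, a semaphorin receptor gene. Secreted ligand genes flanked 47 gaps, 13 (27.7%) with loops, near the share of all gaps, with 31 loops in diestrus and 16 in estrus. Between Pdgfc, a growth factor gene, and Ctso there were 5 and 1, between Ddhd1 and Bmp4 4 and 2, and between Rspo3, which enhances Wnt signals, and Cenpw 4 and 3. Clustered chemosensory genes flanked 18 gaps, of which 1 held a loop.

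Nuclear receptor genes flanked 13 of the gaps, and 4 of these, 30.8%, held desert loops, close to the 28.7% of all 1314 gaps. They held 14 loops in diestrus and 7 in estrus, a ratio of 0.5 against 0.622 over all gaps. Between Arrdc4 and Nr2f2, which encodes the stromal receptor COUP-TFII needed for implantation, there were 8 and 5. Its anchor chr7:69490001-69500000 held 10 and 9 loops once those that crossed Nr2f2 were counted. There the loop of 520 kb had 342 contacts at 6.68 times the expected number in diestrus and 258 at 6.41 times in estrus, and the loop of 1920 kb had 130 and 113. A loop of 2370 kb from it had 73 and 99, the other order. Between Nr5a2, an orphan receptor gene, and Ptprc there were 4 and 1, beside Nr2f1 there were 2 and 0, and beside Rora 0 and 1. No desert gap beside Esr1 or Pgr was among the 4.

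The desert loops used 2093 distinct anchors, of which 882 occurred in both libraries. That was 52.6% of the 1677 anchors in diestrus and 68.0% of the 1298 in estrus. Anchors of any loop, including those with the other anchor outside a desert, took up 4.995% of desert bins in diestrus and 4.19% in estrus, against 12.6% and 12.3% of the other autosomal bins.

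Among single loops, the one with most contacts in either library lay between Npvf and Gm38821 (130 kb), with 875 in diestrus and 676 in estrus at strengths of 8.38 and 8.07. The strongest of those up to 2000 kb listed in diestrus alone joined the deserts on both sides of Nr2f2 over 1890 kb, with 130 contacts at 6.03 times the expected number. A loop of 1920 kb from the same anchor was listed in both libraries. In estrus alone, the strongest up to 2000 kb had few contacts, with 21 at 59.9 times the expected number between Pabpc4l and Pcdh18 and 13 at 14.8 times between Adam6a and Zfp386. The gap between Adam6a and Zfp386 holds 184 V, D, J or C segments of antigen receptor genes, which did not count as coding genes. The third loop in this order, of 1220 kb from beside Trib1 to between A1bg and Myc, had 85 contacts at 12.3 times the expected number. Another of 1290 kb, from between Nsmaf and Tox to between Tox and Car8, had 147 at 6.92 times. The diestrus loop farthest from genes, 1717 kb from Olfm4 and 1714 kb from Pcdh17, spanned 980 kb and had 27 contacts in diestrus.

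Loops over 10 Mb numbered 4 in diestrus and 7 in estrus, and their high strengths rested on expected contacts under 1. One from between Il7 and Stmn2 to between Nbea and Tm4sf1 spanned 48890 kb and had 26 contacts (17.0 to 38.1) in diestrus, at a strength of 251. In estrus it had 30 contacts (20.2 to 42.8), at a strength of 302. Another, from beside Sox11 to beside Immp2l, spanned 14370 kb and had 48 and 47 contacts. Both were listed at identical bins in the libraries. The longest, of 79650 kb, was listed in estrus alone with 16 contacts. Among shorter loops, one of 660 kb between Bod1l and Gm46911 had 17 contacts in diestrus at a strength of 141, the third highest there. Its counterpart in estrus had 13 contacts at 70.7. Such ratios divide by an expected number near 0. The same held for 3 loops up to 10 Mb in diestrus and 6 in estrus, whose expected contacts were also under 1. Without the loops over 10 Mb, 1404 desert loops remained in diestrus and 940 in estrus, and 46.2% and 68.8% were found in the other library.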

How the data were processed

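Hi-C libraries of whole uterus, 1 per stage, were grouped by the stage in their labels. The submitters' processing notes name Juicer and mm10. Aligner, versions and caller settings: not given in the sources used here. Per the file headers, the deposited lists have the columns of HiCCUPS, the loop caller of Juicer, with anchors of 10 kb. Observed contacts and merged pixels are raw counts made by the authors. Expected contacts of 4 neighbourhoods are a signal on the same scale from the authors' caller. The deposited q-values reached 0.0955 in diestrus and 0.0991 in estrus. Anchor positions in the deposited lists are in bases and fall under other values.

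Coordinates are 1-based on mm10. Genes came from a RefSeq table of GRCm38.p6, the same assembly, with 20560 autosomal protein-coding genes. Its 328 entries that start below 3 Mb, where the assembly has no sequence, were left out. Distances ran between nearest edges, and V, D, J and C segments did not count as coding genes. Gaps lie between merged coding genes and are named by both flanks. Pairs were mutually nearest loops. Intervals used Clopper-Pearson limits for shares, Poisson limits for contacts and order statistics for medians. Reads without molecular identifiers are not independent molecules, so Poisson limits cover counting error only.

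The members, lists and rules were chosen with earlier results of these data known. Named were the 12 richest gaps, the 3 with the largest excess in each stage, the 5 strongest and 3 longest loops per list, the 5 largest strength ratios at identical bins in each direction, the 5 strongest loops of a single list, the 5 anchors with most loops and up to 4 gaps per gene list, or a selection of these. A gap that the rule named is not reported here. Loops with most contacts, those up to 2 Mb, those farthest from genes, microRNA anchors, promoters and further loops of the named gaps were added after their values were seen. Alternatives changed the distance, gene set, matching, expectation, q-value limit and list length, and left out chromosome 7. Distance and matching steps were tested on simulated data. Python 3.11.15, pandas 2.3.3, NumPy 2.4.6 and SciPy 1.17.1 were used.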

Additional observations from a re-analysis of the deposited data

How the results depend on the processing

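The desert ratio of estrus to diestrus loops stayed between 0.550 and 0.810 under every alternative that gives it. The ratio of the other autosomal loops turned from 0.935 to 1.01 when the diestrus list was shortened to the strongest loops. Of 190 values under the alternatives 119 stayed within the limits set for them. No paired analysis was possible because each stage has 1 library. With genes at least 50, 200 or 500 kb away, the diestrus loops numbered 2229, 683 and 111, and the estrus loops 1683, 419 and 61. With genes of every kind they numbered 75 and 47. Their shares of autosomal loops at those 3 distances were 8.77%, 2.69% and 0.437% in diestrus and 7.20%, 1.79% and 0.261% in estrus. With genes of every kind they were 0.295% and 0.201%, without predicted genes 5.99% and 4.39%, with the shortened list 5.01% in diestrus, and with at least 50 contacts 3.67% in estrus. The median length in diestrus was 360 kb with the shortened list, 320 kb at 500 kb from genes, and 250 kb with genes of every kind or at least 50 contacts. In estrus it was 270 kb at 200 kb, 470 kb with genes of every kind and 250 kb with at least 50 contacts. The median strength in diestrus was 2.81 with the shortened list, 2.74 at 50 kb, 2.82 at 500 kb, 2.55 with at least 50 contacts and 2.19 over the largest expectation. In estrus it was 3.22 at 500 kb, 2.62 with genes of every kind, 2.61 with at least 50 contacts and 2.29 over the largest expectation. Pairs more than 1.5-fold stronger in diestrus were 10 at 200 kb, 1 at 500 kb, 1 with genes of every kind, 15 with at least 50 contacts and 13 at identical positions. Those stronger in estrus were 5, 1, 0, 5 and 4 in the same order, 18 over the bottom-left and 14 over the largest expectation. The share in 1 gap in diestrus was 72.5%, 88.7% and 95.5% at 50, 200 and 500 kb, 64.0% with genes of every kind, 79.0% with the shortened list and 86.4% with at least 50 contacts. In estrus it was 66.6%, 84.2% and 86.9%, then 55.3% with genes of every kind and 82.0% with at least 50 contacts. Diestrus loops found in estrus were 53.3%, 41.3% and 29.7% at 50, 200 and 500 kb, 36.0% with genes of every kind, 52.0% with the shortened list, 38.6% in identical bins and 49.0% within 20 kb. Estrus loops found in diestrus were 54.1% at 500 kb, 57.4% with genes of every kind, 64.2% with the shortened list and 57.4% in identical bins. Apart from the lower numbers that stricter limits give by construction, the cause was not tested. The limits of 50 contacts and 10 Mb and the count of antigen receptor segments as genes were chosen after seeing the data. With 1 library per stage, the difference between stages cannot be told apart from that between libraries. At a median of 91 and 83 contacts per desert loop, loops near the caller's limits can pass in 1 list by counting error.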
